A study of Homo sapiens with 3 samples.

Results

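Of 15223 ERRγ peaks in BT-474 cells, 319 had an annotation that begins with exon, 3' UTR or TTS (transcription termination site, the annotated end of a transcript) and lay more than 1000 bp from the nearest transcription start site (TSS). They made up 2.10% of the list (exact Clopper-Pearson 95% interval 1.87 to 2.34, counting error only). They comprised 96 exon peaks, 103 3' UTR peaks and 120 TTS peaks. Before the distance limit the same classes held 121, 106 and 135 peaks, so 25 exon, 3 3' UTR and 15 TTS peaks were left out as lying within 1000 bp of a TSS. The peaks are called exonic and terminal peaks below.

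The series mapped the genomic binding of estrogen-related receptor gamma (ERRγ, gene ESRRG) by chromatin immunoprecipitation with sequencing (ChIP-seq) in BT-474, an established line from a human breast tumour, known for ERBB2 amplification and luminal features and the sole line used. All cells were kept in regular DMEM, received fresh medium 24 h after seeding, were labelled as treated with vehicle, and were harvested 90 min after the medium change. The 2 ERRγ libraries were made with a custom antibody and the 1 control library was input DNA, all read as single 50 bp reads. No treated or genetically altered cells are part of the series, and the peaks analysed here form 1 merged list (hg19) without separate values for each library. Hence there was no replicate spread, the depth of the libraries is unknown here, no difference between peak classes was tested, and no expression values were at hand to check the luminal identity of the line.

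ERRγ is an orphan nuclear receptor that binds an extended half-site, the ERR response element, and is best known for switching on genes of mitochondrial energy metabolism together with the PGC-1 coactivators. Nuclear receptors are known to act from promoters and from distant enhancers, and enhancers can overlap exons. A coding exon carries the constraint of the protein sequence, a 3' UTR holds sites that govern RNA stability and translation, and the region past a gene's end may be close to the start of the next gene. A peak placed by annotation in one of these elements therefore is thus assigned to that element by position alone.

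Among the small RNA genes named by exonic and terminal peaks, MIR196A2 and MIR200C had a peak just upstream of their start (chosen after their values were seen, as was MIR208A below). Their mature sequences are shown from RefSeq (GRCh38.p14) to identify the RNAs that the table names in place of the protein-coding gene whose end lies under the peak, with the seed (bases 2 to 8) in capitals.
hsa-miR-196a-5p: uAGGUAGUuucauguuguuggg
hsa-miR-196a-3p: cGGCAACAagaaacugccugag
hsa-miR-200c-5p: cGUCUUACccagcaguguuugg
hsa-miR-200c-3p: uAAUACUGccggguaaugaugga

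The MIR196A2 peak (chromosome 12, 54383635 to 54384872) was annotated at the end of HOXC10, a homeobox transcription factor gene of the HOXC cluster, and was centred at -1269 bp from the miRNA start (negative distances lie upstream). Its deposited score was 442 and its mean conservation 0.83 on a scale from 0 to 1. The MIR200C peak (chromosome 12, 7070362 to 7072203) was annotated at the end of PTPN6, a tyrosine phosphatase gene, at -1580 bp, with a score of 131. miR-200c is known for holding epithelial cells in the epithelial state by repressing ZEB factors. A further miRNA gene, MIR208A, encoded in a cardiac myosin locus, was named at -4809 bp by a peak in exon 23 of 39 of MYH6 that scored 76.5.

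Exonic and terminal peaks were about as strong as the list as a whole. Their score, which has no stated unit and is the authors' own, ran from 50.5 to 3100 with a median of 101.6, against a median of 106 over all peaks, 107.9 over intronic peaks and 101.4 over intergenic peaks beyond 1 kb of a TSS. The median was 92.7 over exon peaks, 102.3 over 3' UTR peaks and 108.4 over TTS peaks, and the order-statistic 95% intervals of these medians (76.5 to 121, 81.9 to 123 and 89.3 to 145) overlapped. In the upper 10% of all peaks by score, at 592.6 or more, lay 34 of the 319 (10.7%, exact 95% interval 7.49 to 14.6), against 9.47% of all peaks beyond 1 kb, a share near the background. By class these were 9 exon, 10 3' UTR and 15 TTS peaks. Peaks within 1 kb of a TSS had a median score of 162.5, and 18.2% of them were in the upper 10%.

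**Figure D1:**
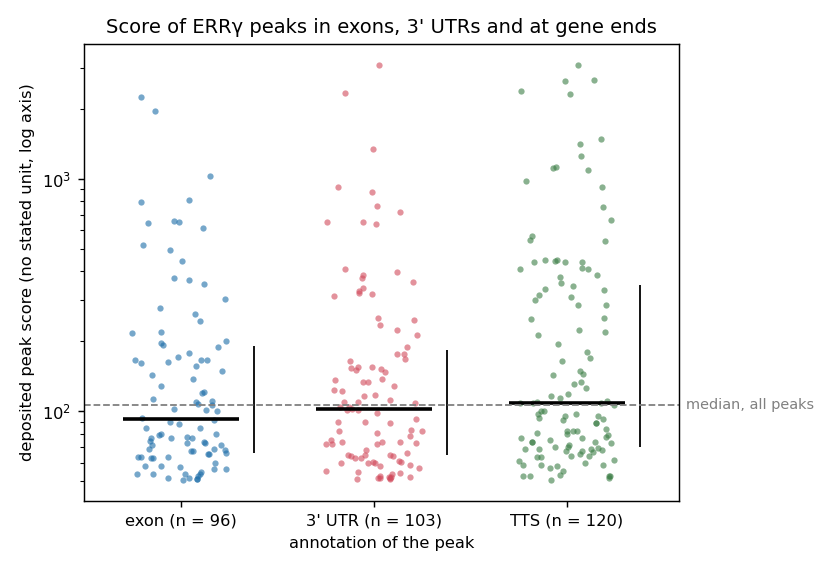
Deposited score of each exonic and terminal peak (points, log axis, no stated unit) for 96 exon, 103 3' UTR and 120 TTS peaks; thick bars are medians, thin lines beside them span the quartiles, and the dashed line is the median of all peaks. The 3 medians, 92.7, 102.3 and 108.4, lie close to the dashed line at 106, and the upper quartile is 347 for TTS peaks, 190 for exon peaks and 183 for 3' UTR peaks.

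Of the 10 strongest peaks, 6 were TTS, 2 were 3' UTR and 2 were exon peaks, at genes of varied function. HOXA13, a homeobox gene of limb and urogenital development, had a TTS peak (chromosome 7, 27235291 to 27237226) with a score of 3100, the only peak named for that gene. FRAT2, whose product binds GSK3 in Wnt signalling, scored 3100 in the 3' UTR of its single exon (chromosome 10, 99092183 to 99093944), with a second, intergenic peak of 1051 further downstream. As 158 peaks of the list tie at exactly 3100 and 17 exceed it, the rank among these is not informative. ETNK2, an ethanolamine kinase of phospholipid synthesis, had a TTS peak of 2677 that spanned 3716 bp, and a weaker one of 287 in intron 3 of 7.

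At SPI1, which encodes the haematopoietic transcription factor PU.1, a TTS peak scored 2628 (chromosome 11, 47375399 to 47377605). The nearest TSS was that of MYBPC3, the cardiac myosin-binding protein C gene, at -2249 bp. RHOV, a small GTPase gene, had a TTS peak of 2396 at 2237 bp and a much weaker promoter peak of 133. TPRG1 had a TTS peak of 2315 at 151.8 kb from its TSS, the strongest of 14 peaks named for the gene.

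Among exon peaks the strongest was in exon 4 of 7 of IL12A, a subunit gene of interleukin-12 (chromosome 3, 159709874 to 159712664, score 2257). A peak in exon 30 of 34 of the cohesin subunit gene STAG1 scored 1954, while the table named it for PCCB, the propionyl-CoA carboxylase gene, whose TSS lay 93.6 kb away. The cancer/testis gene CT62 had a peak of 810 in exon 4 of 4. In 3' UTRs, FRAT2 was followed by MTURN (C7orf41 in the table; 2333 in exon 3 of 3), by the zinc finger gene ZBTB7C (1345, named for SMAD2, whose TSS lay 97.3 kb away) and by a peak of 921 named for EGFLAM, whose annotated transcript had no match in the gene table.

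The gene that held an exonic or terminal peak and the gene named by its nearest TSS often differed. The same share is not given here for intronic peaks, so this cannot be called particular to exonic and terminal peaks. For 179 of 319 peaks (56.1%, exact 95% interval 50.5 to 61.6) the annotated transcript and the nearest TSS belonged to the same gene, for 134 (42.0%, 36.5 to 47.6) to different genes, and 6 had a transcript without a match. The same gene was named for 69 of 96 exon peaks (71.9%, 61.8 to 80.6), 47 of 103 3' UTR peaks (45.6%, 35.8 to 55.7) and 63 of 120 TTS peaks (52.5%, 43.2 to 61.7). The intervals of the exon and 3' UTR shares did not overlap, though peaks of 1 list are not replicates and the difference was not tested.

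Where 2 genes were involved, the peak mostly lay upstream of the neighbour's start. Of the 134 peaks, 92 were upstream of the nearest TSS and 42 downstream. Among the 55 TTS peaks of this kind 37 were upstream, at a median distance of 10.6 kb over the 55. Over all 319 exonic and terminal peaks, 95 (29.8%, exact 95% interval 24.8 to 35.1) lay upstream of the nearest TSS. For comparison, 63.0% of intergenic, 18.1% of intronic and 43.1% of all peaks beyond 1 kb did so. The count of 92 cannot be set against these shares, since the 134 leave out the same-gene peaks, which were nearly all downstream. No difference was tested. At SLC11A1, a macrophage metal transporter gene, a TTS peak of 437 lay at -2749 bp from CTDSP1, and at IL4R a TTS peak of 545 lay at -37275 bp from IL21R, the gene of another interleukin receptor. Both were chosen after their values were seen. Where the same gene was named, 178 of 179 peaks were downstream of its TSS, which follows from their place inside or past the gene; the exception was exon 21 of 44 of ANK3, the ankyrin-G gene, at -31298 bp from the nearest listed TSS of the same gene.

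**Figure D2:**
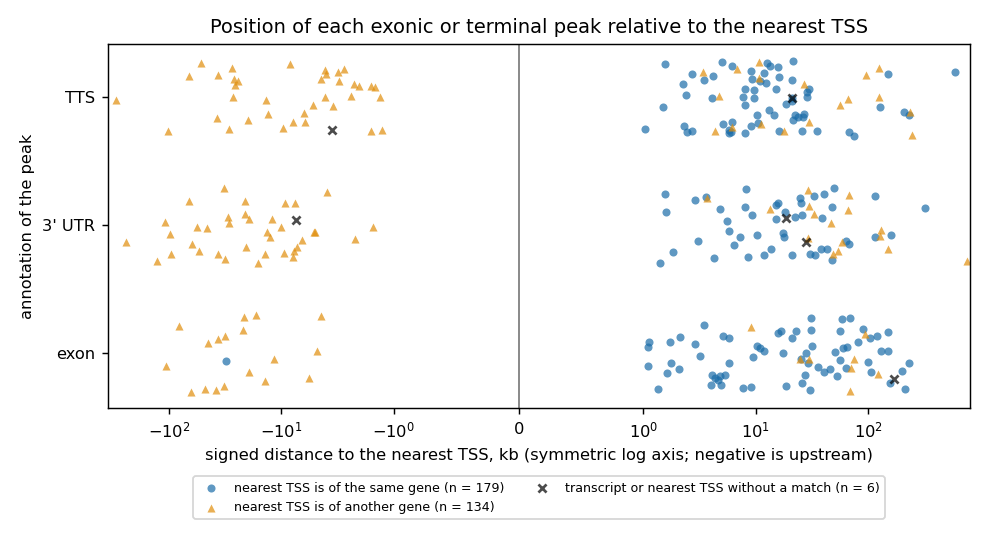
Signed distance of each exonic and terminal peak from the nearest TSS (symmetric log axis, kb, negative upstream) by annotation class; circles name the same gene by transcript and by nearest TSS (n = 179), triangles name different genes (n = 134) and crosses lack a match (n = 6). Circles lie almost wholly downstream of the TSS, while 92 of the 134 triangles lie upstream.

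Exonic and terminal peaks had a shorter median distance to a TSS than intronic or intergenic ones, a difference not tested. It was 18.1 kb, against 43.2 kb for intronic and 87.8 kb for intergenic peaks beyond 1 kb. It was 10.8 kb for TTS peaks, 21.0 kb for 3' UTR peaks and 27.7 kb for exon peaks. Within 5 kb lay 66 of 319 (20.7%, exact 95% interval 16.4 to 25.6), against 9.73% of intronic and 5.01% of intergenic peaks. The farthest peak was in exon 27 of 27, the 3' UTR, of ERBB4, a receptor tyrosine kinase gene of the family of ERBB2, which scored 133 and lay 761 kb from the nearest listed TSS, that of CPS1-IT1. The farthest upstream was a TTS peak of BBS9, 299 kb from the start of BMPER, with a score of 63.7.

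At the limit of the definition, the peaks just outside 1000 bp from a TSS were those of MIR1286 (TTS, 1038 bp, score 67.1), LMX1B (exon 2 of 8, 1097 bp, 71.4) and MAGED2 (exon 3 of 13, 1099 bp, 100.3). Those left out just inside were MIR3151 (TTS, 979 bp, 82.1), SNORA50C (SNORA76 in the table; TTS, 951 bp, 271) and CHD2 (exon 2 of 13, 949 bp, 1970).

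Few exonic and terminal peaks came with a promoter peak at the gene they name. A peak within 1 kb of the TSS was present at the nearest gene for 11 of 319 (3.45%, exact 95% interval 1.73 to 6.09), against 5.12% of all peaks beyond 1 kb, a share near the background. The member peak had the higher score at 5 of these and the promoter peak at 6. ATP1B1, a subunit gene of the sodium pump, had a TTS peak of 55.2 and a promoter peak of 3100. At the opposite end were RHOV, with 2396 at its end and 133 at its promoter, and TRIM3, an ubiquitin ligase gene, with 655 at -2237 bp, in the 3' UTR of ARFIP2, and 50.1 at its promoter. CIAO2A (FAM96A in the table), a component of cytosolic iron-sulfur protein assembly, had similar scores of 613 in exon 5 of 5 and 699 at its promoter. These examples were chosen after their values were seen.

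Exonic and terminal peaks were often the sole peak of the gene named. For 133 of 319 (41.7%) no other peak carried that gene, against 22.4% of all peaks beyond 1 kb. In the remaining 186, the exonic or terminal peak was the strongest of its gene in 58 (31.2%, exact 95% interval 24.6 to 38.4), against 25.9% over all such peaks. Another peak lay within 10 kb, centre to centre, for 93 of 319 (29.2%, 24.2 to 34.5), against 25.9% of all peaks beyond 1 kb. In 52 of the 93 the exonic or terminal peak scored higher than that neighbour, and in 15 the neighbour was itself exonic or terminal.

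Base composition and conservation varied between the classes. The median GC fraction was 0.460 for TTS peaks (95% interval of the median 0.433 to 0.485), 0.423 for 3' UTR peaks (0.389 to 0.444) and 0.397 for exon peaks (0.380 to 0.418), against 0.404 in introns, 0.397 between genes and 0.540 within 1 kb of a TSS. A GC fraction of 0.5 or more was found in 42 of 120 TTS peaks (35.0%, exact 95% interval 26.5 to 44.2), 20 of 103 3' UTR peaks (19.4%) and 20 of 96 exon peaks (20.8%), and in 12.1% of intronic peaks. The median mean conservation was 0.20 for exon peaks (0.17 to 0.23) and 0.09 for both 3' UTR (0.08 to 0.13) and TTS peaks (0.07 to 0.11), against 0.07 in introns, 0.06 between genes and 0.12 at promoters. Each value is a mean over the whole peak, so it also counts bases outside the exon.

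**Figure D3:**
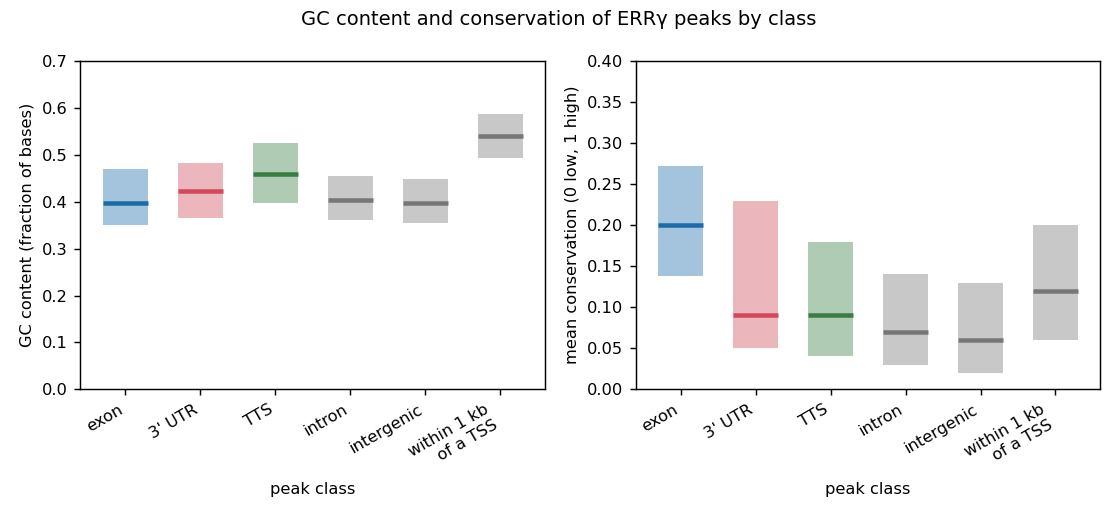
Median (line) and quartile range (box) of the GC fraction and of the mean conservation score, over exon (n = 96), 3' UTR (n = 103) and TTS (n = 120) peaks, intronic and intergenic peaks beyond 1 kb of a TSS, and peaks within 1 kb of a TSS. TTS peaks have a median GC fraction of 0.460 and exon peaks a median conservation of 0.20, both above the intronic and intergenic medians.

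The 3 most conserved peaks were exon peaks, and the HOXC10 end peak described above came next with 0.83. The highest value, 0.92, belonged to a weak peak of 53.7 in exon 1 of 2 of MN1, a transcriptional coregulator gene, which also had the highest CpG content of the group, a fraction of 0.0909. SLITRK5, a synaptic membrane protein gene, followed with 0.91 in exon 2 of 2 (score 189), and NOVA1, a neuronal splicing regulator gene, with 0.89 in its last exon, 149 kb from its TSS (score 161). A conservation of 0.5 or more was found in 21 of 319 peaks (6.58%, exact 95% interval 4.12 to 9.89), against 1.32% of all peaks beyond 1 kb. By class these were 9 exon (9.38%), 9 3' UTR (8.74%) and 3 TTS peaks (2.5%). The interval of the TTS share, 0.519 to 7.13, included the share of all peaks beyond 1 kb. Other CpG-rich peaks were in SOX11 (a developmental transcription factor gene; 0.0862, 3' UTR of its single exon, score 154) and GNAS (a G protein subunit gene; 0.0861, exon 1 of 13, score 63.2).

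The place in the transcript is partly set by how the peaks were chosen, since the distance limit removes peaks in first exons near a TSS and a 3' UTR mostly lies in the last exon. Of 96 exon peaks, 77 were in internal exons, 16 in last exons and 3 in first exons. Of 103 3' UTR peaks, 95 were in last exons, 4 in genes of a single exon, 3 in internal exons and 1 in a first exon. The exon peaks all belonged to transcripts with coding accessions, although RefSeq (GRCh38.p14) classes CT62, the gene of 1 of them, as long non-coding. By accession, 11 3' UTR and 7 TTS annotations were of non-coding transcripts. A non-coding transcript has no 3' UTR, so for these 11 peaks the label does not mark one. The contrast is therefore one of labels and cannot be read as a difference in binding. The median conservation was 0.395 over the 16 last-exon and 0.18 over the 77 internal exon peaks, and their median scores were 125 and 89.5.

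The lists of energy metabolism genes held 3 exonic and terminal peaks, which were 1 of 48 peaks of any class for oxidative phosphorylation (2.08%), 1 of 24 for the TCA cycle (4.17%) and 1 of 20 for fatty acid oxidation (5.0%). For the 46 listed genes of oxidative phosphorylation there was 1, in exon 46 of 62 of VPS13B, named for the cytochrome c oxidase gene COX6C, 75.5 kb from its TSS (score 67.2). The COX6C promoter peak scored 1227. Among 23 genes of the TCA cycle and pyruvate dehydrogenase there was 1, in exon 10 of 11 of PDK4 (chromosome 7, 95215844 to 95216966), the kinase that shuts off pyruvate dehydrogenase and a known ERR target. It scored 79.6 and ranked 5 among the 6 peaks of the gene, the strongest of which, of 1296, was intergenic at 48520 bp from the TSS. Among 22 fatty acid oxidation genes there was 1, of 357, at the end of TEX56P, at 4729 bp from the TSS of the enoyl-CoA isomerase gene ECI2. No exonic or terminal peak was on the lists of glycolysis and the pentose phosphate pathway (23 genes, 26 peaks of any class), glutathione and ROS (37 genes, 35 peaks), estrogen response (21 genes, 43 peaks) or the cytosolic ribosome (28 genes, 8 peaks). With so few peaks per list and 2.10% of all peaks exonic or terminal, a count of 0 is near the background. A count of 0 in 319 allows a share of up to 0.940% of the exonic and terminal peaks for each list, taken as 3 counts of 319. The list of ERBB2 amplicon genes had no peak of any class in the table used here, so it gives no share.

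Of 16 listed luminal marker genes, 4 had exonic or terminal peaks, 6 peaks in all of 117 peaks of any kind for the list (5.13%). KRT18, a keratin of simple epithelia, had a peak of 262 in exon 7 of 8 (chromosome 12, 53345354 to 53346685) and one of 65.2 in exon 3 of 8, beside 3 intergenic peaks of 314, 180 and 464. FOXA1, the pioneer factor of the luminal programme, had a peak of 129 in exon 2 of 2 (chromosome 14, 38060660 to 38062599), with a conservation of 0.64, and one of 116 in the 3' UTR of MIPOL1, 47.2 kb from the FOXA1 TSS. They ranked 5 and 8 among the 20 peaks named for FOXA1, the strongest of which was intergenic with 611. ELF3, an epithelial ETS factor gene, had its strongest peak, of 322, in its 3' UTR, and SPDEF, a further ETS factor gene, had a TTS peak of 287 as its sole peak. KRT18 has near-identical processed copies elsewhere in the genome, and the sources used here do not say how reads with several matches were placed, so its exon peaks are uncertain.

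Other lists gave isolated peaks. Among 43 nuclear receptor and coregulator genes there was 1, in exon 6 of 8 of the retinoic acid receptor gene RARB, which scored 102 and was named for TOP2B, of 95 peaks of any class for the list (1.05%). Among 23 sarcomere genes there were 2, the MYBPC3 and MYH6 peaks described above, of 15 peaks of any class (13.3%). Zinc finger genes with symbols that start with ZNF gave 11, or 5.88% of the 187 peaks of this family, led by ZNF629 (344, at the end of RNF40), ZNF8 with ZNF544 (192), ZNF57 (167) and ZNF318 (133). Over all peaks, 2.10% were exonic or terminal; the lists were not tested against this share.

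Several genes held more than 1 exonic or terminal peak. C1orf21 had 3 at its end, a TTS peak of 412 and 3' UTR peaks of 247 and 104, all 3 named for EDEM3, an endoplasmic reticulum mannosidase-like gene, at 124.9, 128.1 and 130.7 kb from its TSS. CD59, a complement inhibitor gene, had 2 in its 3' UTR (147 and 100.7), which with 1 in the 3' UTR of KIAA1549L (117) were named for C11orf91. ABCA10, of the lipid-type ABC transporters, had 4 (143 in exon 14, 77.5 in exon 30, 68.8 in exon 9 of 40, and 58.4 at its end), while the neighbouring ABCA5 and ABCA6 had 1 each, of 88.9 and 73.4. The ABCA10 peak of 143 was 3282 bp wide, above the median width of 1209 bp.

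**Figure D4:**
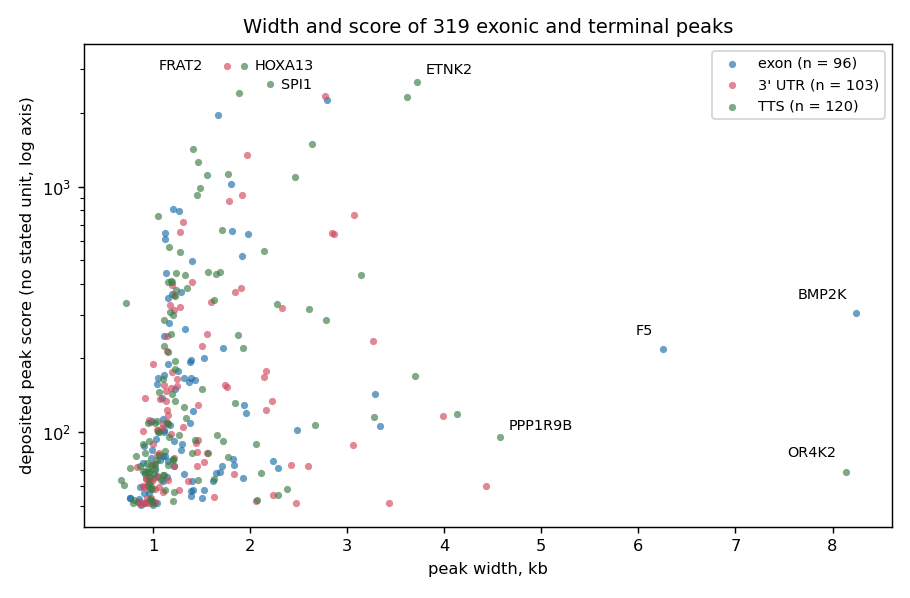
Width (kb) and deposited score (log axis, no stated unit) of each exonic and terminal peak, coloured by annotation, with the 4 widest and the 4 strongest named by the annotated gene. The widest, in BMP2K, reaches 8239 bp with a score of 304, and the OR4K2 peak reaches 8137 bp with a score of only 69.0.

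Wider peaks tended to have higher scores, with many exceptions. Spearman's rank correlation between width and score over the 319 peaks was 0.45, a description over peaks that share their libraries and their caller. BMP2K, a kinase gene, had the widest peak, 8239 bp around exon 5 of 14 with a score of 304. The olfactory receptor gene OR4K2 had a TTS peak of 8137 bp with a score of 69.0, F5, the coagulation factor V gene, a peak of 6249 bp in exon 15 of 25 (217), and PPP1R9B a TTS peak of 4569 bp (95.1). Of the 319 peaks, 19 (5.96%, exact 95% interval 3.62 to 9.15) were at least 2848 bp wide, the width that marks the widest 5% of the list, as were 5.01% of all peaks, and 6 of these 19 scored below the median of the list, as did 308 of all 763 peaks of that width (40.4%). The rank correlation between score and GC fraction was 0.18, and those with conservation and with distance were -0.03 and -0.07.

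The share of exonic and terminal peaks varied between chromosomes. It was highest on chromosome 17, with 24 of 434 peaks (5.53%), and on chromosome 16, with 17 of 394 (4.31%), and lowest among the autosomes on chromosomes 4 (6 of 692, 0.867%) and 5 (10 of 1138, 0.879%). Chromosome 1 held the most, 45. With the peaks ranked by score and cut into 10 bins of near-equal size, the share lay between 1.51% and 2.76% in every bin.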

How the data were processed

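The ERRγ ChIP-seq series has 2 ERRγ libraries and 1 input; the deposited file used here is 1 merged peak table, and no signal per library was analysed here. The submitters' processing notes name the tools BWA 0.5.9, MACS 1.4.1 and HOMER 3.18 and the build hg19, without roles. Thresholds, filters and any pooling were not stated there. Each peak's score is the authors' deposited value without a stated unit. The deposited GC values are a fraction of bases although the file header writes %, the CpG values likewise count CpGs per base, and conservation is a deposited mean score from 0 to 1. Coordinates are printed as deposited.

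Members were selected by annotation and distance in Python 3.11.15 with pandas 2.3.3 and scipy 1.17.1, and the selection and spacing code was tested on simulated data. Annotated accessions were matched to genes through a RefSeq table of GRCh38.p14 or the deposited table (313 of 319), and no coordinates were taken from RefSeq. A retired gene ID was replaced by the gene that now holds the nearest transcript. Shares have exact Clopper-Pearson and medians order-statistic 95% intervals. No hypothesis test was run, since peaks of 1 list are not replicates. The spread between libraries, and so the precision of a peak's score, is unknown here. Named genes follow a rule: the 10 strongest members, the 4 strongest per class, list members, genes with several members, extremes of conservation, CpG, width and distance; other genes are marked in the text as chosen after their values were seen. Some genes that the rule names are not reported here. Members, lists and rule were chosen with earlier results of these data known.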

Additional observations from a re-analysis of the deposited data

How the results depend on the processing

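Each of 8 summary values was recomputed with other limits, classes, scores, chromosomes or merging, 36 values in all, of which 32 stayed within the 95% interval of the main value or, for the number of members, within 1.5 times it. Without TTS peaks 199 of the 319 members were left, since fewer classes were taken. The median GC fraction of 0.425 was 0.403 with a limit of 5000 bp, 0.401 without TTS peaks and 0.440 with the upper 50% of all peaks by score. The cause was not tested. A search for the ERR motif was planned and not run, as no hg19 sequence was used here. No paired analysis was possible because the peak table used here holds no value per library, and leaving out a library was impossible for the same reason. Depth and reproducibility of a single peak are thus unknown, and every interval covers counting error only.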

Other observations

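Of the 21 peaks with a mean conservation of 0.5 or more, several lay at genes the report does not name. The 3' UTR peak of CELF1 had a mean conservation of 0.82 and a score of 60.0. TIA1 had an exon 12 peak with 0.62 (score 113) and a 3' UTR peak with 0.81 (score 51.2). The TTS peak of STAU2 had 0.51 (score 89.3). The 3' UTR peaks of FERMT2, NXPH1, UBE2G1 and BIRC6 had 0.70, 0.68, 0.68 and 0.64, and those of PDE7A, ZHX1 and GALNTL6 had 0.62, 0.60 and 0.53. The exon peaks of TPBG, TRIM59 and INTS12 had 0.66, 0.65 and 0.52. These genes were chosen after their values were seen, and no enrichment was tested.

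Further exonic and terminal peaks of varied genes, also chosen after their values were seen, had these scores. The TTS peak of RAB7A, a late endosomal GTPase gene, scored 920 and was named for IFT122P3 (LOC653712 in the table), 55.7 kb away. That of NHERF1, a scaffold gene of epithelial membranes, scored 665 and was named for NAT9, 6.1 kb away. The TTS peak of HSPB1, a small heat shock protein gene, scored 449. HSPB1 had 2 more peaks downstream, of 69.1 and 582. A TTS peak of FOXO3, a stress-response transcription factor gene, scored 387 and was named for LINC00222, 66.6 kb away. PRKAA1, a catalytic AMPK subunit gene, had a peak of 200.4 in exon 3 of 9 that was named for TTC33.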
